A study of Homo sapiens with 35 samples.

Results

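The cholesterol and fatty acid synthesis genes described here are 38 named genes of sterol and fatty acid metabolism, found by their gene symbols in the deposited table of 28503 genes. All 38 were present, and all 38 had enough counts to be tested. Of these, 17 belong to the sterol branch, 16 to the fatty acid branch and 5 control both branches. RNA was sequenced from DU145, an established line of prostate cancer cells from a metastasis to the brain, grown with fetal bovine serum. Short hairpin RNAs were directed at luciferase in the control cells (shLuciferase) and, in the others, at ZMYND8 (shZMYND8), a reader of modified histone tails, or at JARID1D (shJARID1D), a histone H3 lysine 4 demethylase encoded by the Y-linked gene KDM5D. Each group had 2 libraries, 6 in all. The labels give neither the number of hairpins or clones nor whether a group's libraries stem from separate cultures, so each p-value reflects the spread among these libraries alone, and that spread may be technical. The columns used for shZMYND8 are named Rac7 in the table, which was read as RACK7, another name of ZMYND8 in the labels.

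Cells make cholesterol from acetyl-CoA by way of mevalonate, farnesyl diphosphate, squalene and lanosterol, and make palmitate from acetyl-CoA by way of malonyl-CoA. The transcription factors SREBP1 and SREBP2, made from SREBF1 and SREBF2, drive the genes of both routes. SCAP escorts them from the endoplasmic reticulum to the Golgi, where they are cut and released, and INSIG1 and INSIG2 hold SCAP back when sterols are plentiful. SREBP2 is known mainly for sterol genes and SREBP1 for fatty acid genes, and prostate cancers are known for active lipid synthesis.

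Promoters of 5 members are shown because SREBPs act there together with factors such as NF-Y, which binds the CCAAT box. The first 4 belong to members that changed against shLuciferase and hold a CCAAT box, by smallest adjusted p, and SREBF2 was added after its match to the sterol regulatory element core TCACNCCAC had been seen. Sequences are from RefSeq on build GRCh38.p14, run 5′ to 3′ on the strand of the gene and hold 280 bases, from 250 before the start site to 30 after it. They lie at chr21:46228745-46229024 for LSS (minus strand), chr10:112183736-112184015 for GPAM (minus strand), chr6:53348921-53349200 for ELOVL5 (minus strand), chr20:34874739-34875018 for ACSS2 (plus strand) and chr22:41832855-41833134 for SREBF2 (plus strand). Capitals mark CCAAT or its reverse complement ATTGG, the E-box CACGTG in ELOVL5 and the sterol element in SREBF2.
LSS: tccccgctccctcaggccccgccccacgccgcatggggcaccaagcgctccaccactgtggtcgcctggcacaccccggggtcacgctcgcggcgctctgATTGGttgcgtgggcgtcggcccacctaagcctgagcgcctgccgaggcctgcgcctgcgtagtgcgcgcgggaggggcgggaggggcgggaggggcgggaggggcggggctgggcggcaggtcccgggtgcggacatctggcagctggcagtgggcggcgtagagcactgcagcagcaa
GPAM: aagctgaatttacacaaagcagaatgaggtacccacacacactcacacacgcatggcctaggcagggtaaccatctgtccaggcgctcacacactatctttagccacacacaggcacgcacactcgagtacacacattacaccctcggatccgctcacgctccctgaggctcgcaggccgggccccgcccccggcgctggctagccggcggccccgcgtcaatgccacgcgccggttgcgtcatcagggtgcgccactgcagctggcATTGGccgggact
ELOVL5: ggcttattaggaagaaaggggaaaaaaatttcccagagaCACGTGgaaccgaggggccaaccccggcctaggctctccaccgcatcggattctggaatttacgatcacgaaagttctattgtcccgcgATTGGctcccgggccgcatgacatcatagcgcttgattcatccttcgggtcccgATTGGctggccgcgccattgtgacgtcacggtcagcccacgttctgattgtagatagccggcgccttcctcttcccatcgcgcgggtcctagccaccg
ACSS2: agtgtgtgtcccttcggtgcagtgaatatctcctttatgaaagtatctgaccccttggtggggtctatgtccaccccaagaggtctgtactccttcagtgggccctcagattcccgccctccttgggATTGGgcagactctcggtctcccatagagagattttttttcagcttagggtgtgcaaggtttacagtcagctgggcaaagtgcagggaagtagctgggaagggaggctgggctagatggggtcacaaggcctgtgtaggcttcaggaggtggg
SREBF2: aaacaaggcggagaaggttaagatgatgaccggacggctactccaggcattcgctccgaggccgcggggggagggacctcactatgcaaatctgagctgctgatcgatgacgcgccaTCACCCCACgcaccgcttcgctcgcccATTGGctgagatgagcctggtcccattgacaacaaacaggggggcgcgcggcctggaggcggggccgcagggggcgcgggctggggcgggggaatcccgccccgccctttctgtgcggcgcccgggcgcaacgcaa

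The CCAAT box of LSS lies 150 bases before the start site, that of ACSS2 123 bases before it and that of GPAM 17 bases after it, while ELOVL5 holds a pair at 122 and 68 bases before its start. In SREBF2 the sterol element lies 133 bases and the CCAAT box 106 bases before the start. Motifs were searched on both strands in windows of 250 bases before to 50 after each start, and 34 of the 38 members had such windows, 51 in all. ACAT2, FDFT1, SQLE and FASN were not searched. Another window of ACSS2, at chr20:34876362-34876661, held 0 matches to CCAAT or ATTGG and is not shown. CCAAT or ATTGG stood in 29 of the 51 windows (56.9%), against 34.6% of 35116 windows in the whole table and 34.1% of the windows of genes tested. By branch it stood in 13 of 18 windows of the sterol branch (72.2%) and in 14 of 27 of the fatty acid branch (51.9%). TCACNCCAC stood in 2 windows of members (3.92%), those of SREBF2 and ACSL1, against 1.13% of all windows, and in none of the 14 windows of members that changed against shLuciferase. The GC box GGGCGG, bound by Sp1, stood in 80.4% of the members' windows, 45% of all windows and 64.9% of those of genes tested. The E-box CACGTG stood in 7.84% of the members' windows, 7.26% of all windows and 9.07% of those of genes tested, and was found in windows of LSS, SCAP, INSIG1 and ELOVL5. Each motif was counted on its own, so matches of different motifs may overlap, and a match describes these letters only.

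The libraries held 22925611 to 25001300 deposited counts, and 3 fragments corresponded to 0.109 to 0.145 CPM (counts per 1 M of a library's scaled total), the unit of all levels below. Replicate libraries differed beyond sampling noise, most of all the controls, with a chi-square per gene of 33.0 against 15.4 for shZMYND8 and 11.2 for shJARID1D. ZMYND8 was lower in shZMYND8 (35.5 and 33.2 CPM) than in shLuciferase (64.7 and 52.7 CPM, log2 fold change -0.77, adjusted p = 0.00491), though with an adjusted p of 0.0581 without shZMYND8 replicate 2. KDM5D was lower in shJARID1D (19.6 and 17.9 CPM) than in shLuciferase (58.1 and 61.1 CPM, -1.67, adjusted p = 0.000831). The epithelial markers KRT8, KRT18, KRT19, EPCAM and CDH1 were all detected, but their levels moved with the knockdowns. In shZMYND8, EPCAM (19.8 to 21.0 CPM in shLuciferase, 5.83 to 6.88 CPM in shZMYND8) and KRT19 fell and CDH1 rose (29.0 to 48.9 CPM, then 73.5 to 83.8 CPM), and in shJARID1D, KRT8 and KRT18 fell. The summed level of these 5 markers was 1321 to 1862 CPM in shLuciferase, 1100 to 1222 CPM in shZMYND8 and 962.6 to 1131 CPM in shJARID1D. KLK2, a marker of luminal prostate cells, was at 0 in every library. Marker sums of immune cells (1.82 to 3.37 CPM), endothelial cells (0.134 to 0.909 CPM), fibroblasts (0.344 to 1.48 CPM) and adipocytes (0 to 0.316 CPM) were low, with CD3E, DCN, ADIPOQ and LEP at 0. The hepatocyte sum of 60.3 to 101.6 CPM was nearly all SERPINA1, which was lower in shZMYND8 than in shJARID1D, while APOB was at 0. The part of these markers in the results below was not tested.

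In shZMYND8, most genes of the sterol branch lay somewhat below the control, while HMGCS1 at the start of the route rose. Of the 38 members, 7 passed an adjusted p of 0.05 against shLuciferase: HMGCS1 rose, and MVK, FDFT1, LSS, ELOVL5, GPAM and LPIN1 fell. That is 18.4% of the members, where 16.2% of all 15867 genes tested were called, 8.89% higher and 7.34% lower. The median log2 fold change of the members was -0.13, against -0.01 over all genes tested. In shJARID1D, 5 members passed against shLuciferase: ACSS2 rose, and INSIG1, ELOVL1, ELOVL6 and GPAM fell. They made up 13.2% of the members, with 5.75% of all genes tested called, 2.96% higher and 2.79% lower, and the members' median was 0.05. Between the knockdowns, 10 members differed, 3 of them higher and 7 lower in shZMYND8 than in shJARID1D. That is 26.3%, against 15.7% of all genes tested (8.67% higher and 7.02% lower). Here and below, an adjusted p is that of edgeR's quasi-likelihood test with the Benjamini-Hochberg adjustment over all genes tested, ± marks the standard error of a log2 fold change, and each group has 2 libraries. Both comparisons with shLuciferase use the same control libraries. In such bulk libraries, a change in every cell and a change in some of the cells cannot be told apart.

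**Figure D1:**
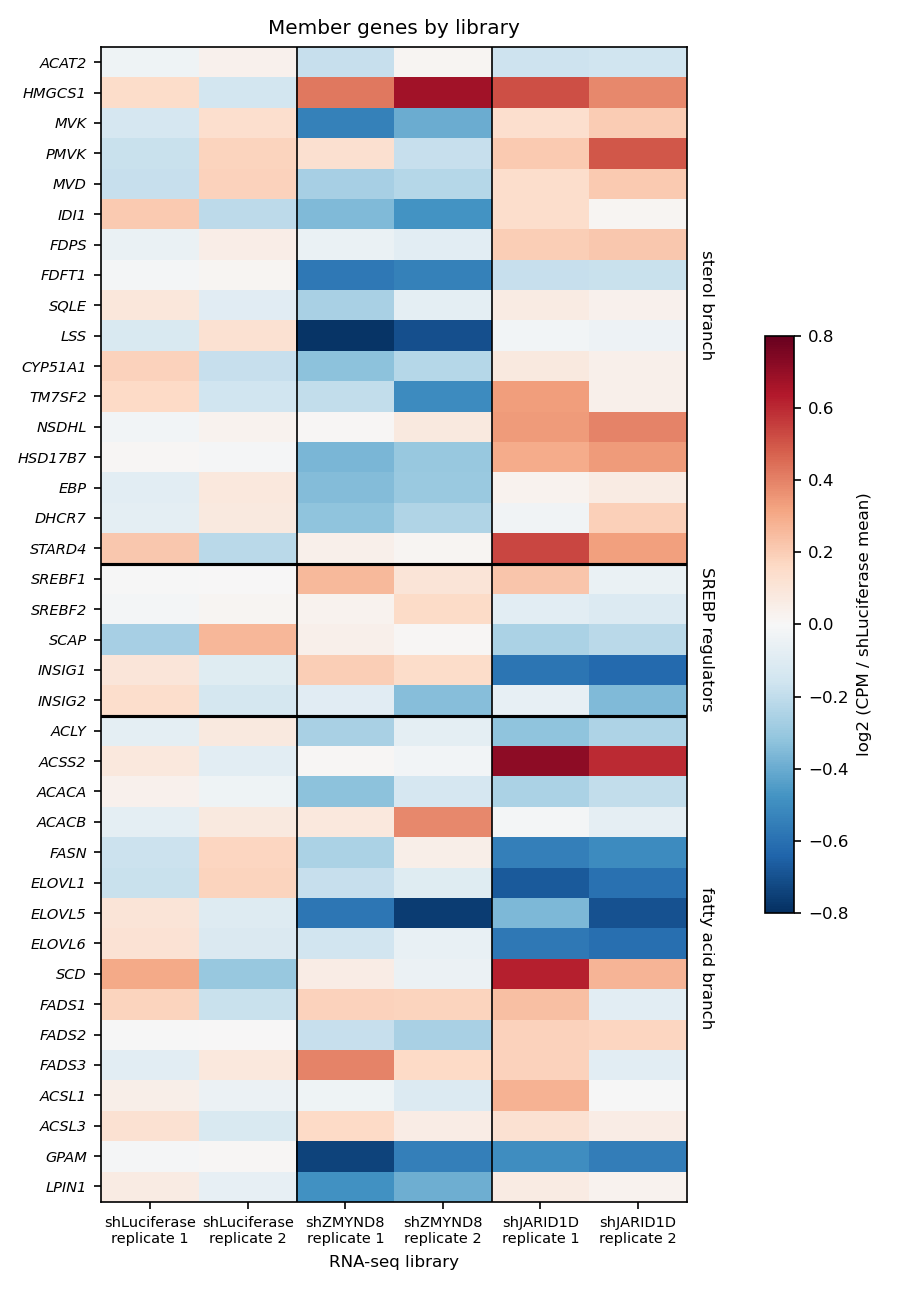
Level of each of the 38 members (rows, by branch) in each of the 6 libraries (columns). Values are log2 CPM minus the mean log2 CPM of the 2 shLuciferase libraries. LSS, FDFT1, MVK and GPAM are blue in both shZMYND8 libraries, HMGCS1 is red in both libraries of each knockdown, and INSIG1, ELOVL1, ELOVL6 and FASN are blue in both shJARID1D libraries.

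The 5 regulators did not pass the test in shZMYND8 (0 of 5 by edgeR, DESeq2 or limma voom, and 0 at an unadjusted p under 0.05), and INSIG1 fell in shJARID1D. INSIG1, which retains SCAP in the endoplasmic reticulum and is itself a known SREBP target, stood at 224 and 195 CPM in the shLuciferase libraries, 240 and 232 CPM in shZMYND8 and 140 and 136 CPM in shJARID1D. Both shJARID1D libraries lay below all others. INSIG1 was 1.52-fold lower in shJARID1D than in the control (log2 fold change -0.60 ± 0.12, adjusted p = 0.0227) and 1.71-fold higher in shZMYND8 than in shJARID1D (0.77 ± 0.12, adjusted p = 0.00351). Against shLuciferase, shZMYND8 differed by 0.17 ± 0.12 (adjusted p = 0.37). The related INSIG2, with the same role, stood at 26.97 and 22.2 CPM in shLuciferase, 23.0 and 19.3 CPM in shZMYND8 and 23.3 and 19.2 CPM in shJARID1D, so that all 3 groups overlapped.

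SREBF2 stood at 127 and 129.9 CPM in shLuciferase, 131 and 143 CPM in shZMYND8 and 121 and 119 CPM in shJARID1D. Its log2 fold changes were 0.09 ± 0.11 and -0.10 ± 0.11, within the replicate error. SREBF1 stood at 43.9 and 44.2 CPM in shLuciferase, 52.6 and 47.4 CPM in shZMYND8 and 51.3 and 42.4 CPM in shJARID1D. Its log2 fold changes of 0.18 ± 0.13 and 0.09 ± 0.13 did not pass either, and the control and shJARID1D libraries overlapped. SCAP, the escort protein, stood at 54.9 and 79.6 CPM in shLuciferase, 67.9 and 66.5 CPM in shZMYND8 and 55.4 and 56.8 CPM in shJARID1D. Its control libraries span the values of both knockdowns, and the difference between shJARID1D and the control was -0.26 ± 0.16 with all libraries and -0.51 without shLuciferase replicate 1 (adjusted p = 0.366 and 0.0158). SREBF1 and SREBF2 are also the host genes of the microRNAs miR-33b and miR-33a, whose reads cannot be told apart from theirs here. SREBF1 also shares its locus with RAI1, and SREBF2 with SREBF2-AS1.

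The mevalonate pathway runs from acetyl-CoA to farnesyl diphosphate. HMGCS1 condenses acetyl-CoA with acetoacetyl-CoA early in the route. It stood at 423 and 345 CPM in shLuciferase, 512 and 609 CPM in shZMYND8 and 545 and 499 CPM in shJARID1D, and every knockdown library exceeded both controls. The rise in shZMYND8 was 1.46-fold (0.54 ± 0.14, adjusted p = 0.0295), and the difference in shJARID1D, 1.36-fold (0.44 ± 0.14), did not pass (adjusted p = 0.0983). MVK, the kinase that phosphorylates mevalonate, stood at 45.1 and 54.4 CPM in shLuciferase, 34.1 and 37.6 CPM in shZMYND8 and 54.4 and 56.9 CPM in shJARID1D. Both shZMYND8 libraries lay below all others. MVK was 1.39-fold lower in shZMYND8 than in the control (-0.47 ± 0.13, adjusted p = 0.0358) and 1.55-fold lower than in shJARID1D (-0.64 ± 0.13, adjusted p = 0.0122).

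The other 5 genes of the mevalonate pathway passed in no comparison. In shZMYND8 against the control their log2 fold changes ran from -0.43 for IDI1 to -0.03 for PMVK, and in shJARID1D from -0.16 for ACAT2 to 0.35 for PMVK. IDI1, the isomerase that makes dimethylallyl diphosphate, stood at 255 and 191 CPM in shLuciferase, 173 and 159 CPM in shZMYND8 and 243 and 223 CPM in shJARID1D. The IDI1 levels of shZMYND8 lay below all others, and the adjusted p was 0.0792 against the control and 0.051 against shJARID1D. MVD, the decarboxylase that makes isopentenyl diphosphate, differed by -0.26 ± 0.14 and 0.16 ± 0.14 from the control in shZMYND8 and shJARID1D. FDPS, which makes farnesyl diphosphate, differed by -0.07 ± 0.11 and 0.20 ± 0.11. ACAT2, which makes acetoacetyl-CoA, differed by -0.08 ± 0.12 and -0.16 ± 0.12. In the RefSeq annotation MVK shares its locus with MMAB, ACAT2 with TCP1 and SOD2, IDI1 with WDR37 and IDI2-AS1, and FDPS with RUSC1-AS1. Since the strandedness of the libraries is not known here, counts of overlapping genes are uncertain.

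From squalene to cholesterol, FDFT1 and LSS fell in shZMYND8 and none of the 9 genes passed in shJARID1D (0 of 9 by edgeR, DESeq2 and limma voom, 2 of 9 at an unadjusted p under 0.05). LSS, the cyclase that folds squalene epoxide into lanosterol, stood at 173 and 206 CPM in shLuciferase, 109.5 and 116 CPM in shZMYND8 and 186 and 184 CPM in shJARID1D. The shZMYND8 libraries lay below all others, and the shJARID1D libraries fell between the controls. LSS was 1.68-fold lower in shZMYND8 than in the control (-0.75 ± 0.12, adjusted p = 0.00388) and 1.64-fold lower than in shJARID1D (-0.71 ± 0.12, adjusted p = 0.006). This was the lowest log2 fold change of any member in both of these comparisons. FDFT1, the squalene synthase and the committed step to sterols, stood at 427 and 435 CPM in shLuciferase, 289 and 296.5 CPM in shZMYND8 and 379.7 and 381 CPM in shJARID1D. The groups did not overlap, with shZMYND8 lowest. FDFT1 was 1.47-fold lower in shZMYND8 than in the control (-0.56 ± 0.11, adjusted p = 0.00868) and 1.298-fold lower than in shJARID1D (-0.38 ± 0.11, adjusted p = 0.0443).

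HSD17B7, a ketosteroid reductase of the demethylation complex, passed the test between the knockdowns and not against the control. It stood at 30.4 and 29.97 CPM in shLuciferase, 23.4 and 24.4 CPM in shZMYND8 and 37.0 and 38.2 CPM in shJARID1D. The control libraries lay between the knockdowns. HSD17B7 was 1.57-fold lower in shZMYND8 than in shJARID1D (-0.65 ± 0.12, adjusted p = 0.00688), while its differences from the control were -0.34 ± 0.12 (adjusted p = 0.0786) and 0.32 ± 0.12 (adjusted p = 0.133). The sterol isomerase gene EBP was at 123 and 137 CPM in shLuciferase, 102 and 105 CPM in shZMYND8 and 132.5 and 136 CPM in shJARID1D. DHCR7, which catalyses the last step to cholesterol, was at 241.5 and 269 CPM in shLuciferase, 203 and 216 CPM in shZMYND8 and 249.7 and 290.0 CPM in shJARID1D. EBP and DHCR7 were thus lowest in shZMYND8 without passing the test (-0.33 ± 0.11 and -0.28 ± 0.12, adjusted p = 0.0804 and 0.154). CYP51A1, the lanosterol demethylase, and TM7SF2, a sterol reductase, differed by -0.29 ± 0.14 and -0.35 ± 0.16 in shZMYND8 and by 0.05 ± 0.14 and 0.19 ± 0.16 in shJARID1D. SQLE, the squalene epoxidase, differed by -0.17 ± 0.12 and 0.05 ± 0.12. NSDHL, a decarboxylating dehydrogenase of the demethylation complex, was the 1 gene of these 9 not below the control in shZMYND8 (0.04 ± 0.11), and stood 1.29-fold above it in shJARID1D (0.37 ± 0.11, adjusted p = 0.0876). STARD4, a carrier of cholesterol between membranes, was at 51.1 and 38.0 CPM in shLuciferase, 45.4 and 44.5 CPM in shZMYND8 and 63.8 and 55.4 CPM in shJARID1D, and its difference in shJARID1D (0.42 ± 0.15) did not pass (adjusted p = 0.133).

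**Figure D2:**
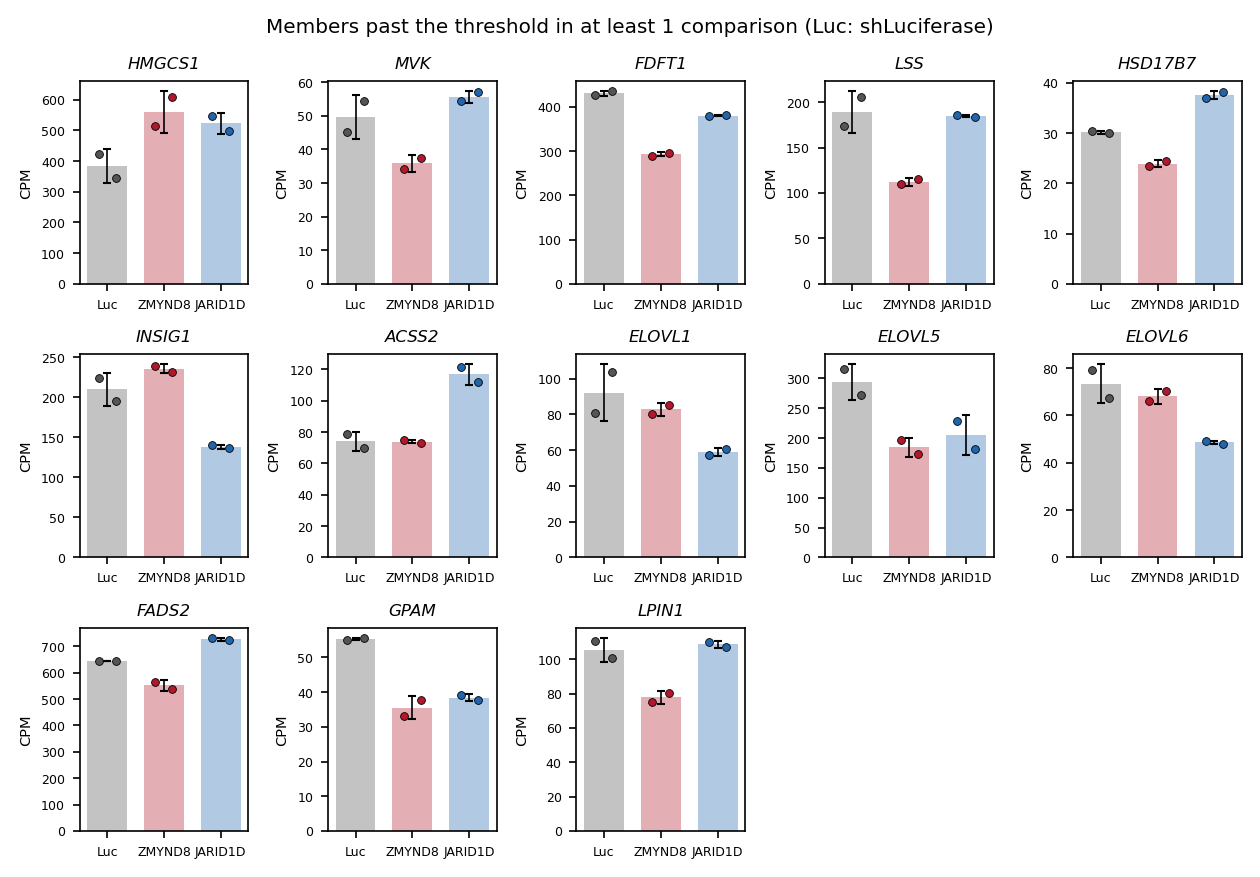
CPM of the 13 members past the threshold in at least 1 of the 3 comparisons, for shLuciferase (Luc), shZMYND8 and shJARID1D. Points are the 2 libraries of a group, bars their mean and error bars their SD. The shZMYND8 points of MVK, FDFT1, LSS, HSD17B7, FADS2 and LPIN1 lie below all others, the shJARID1D points of INSIG1, ELOVL1 and ELOVL6 lie below all others, and GPAM is lower in both knockdowns.

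In the fatty acid branch, ACSS2, 1 of the 2 genes that supply acetyl-CoA, rose in shJARID1D, and neither gene passed in shZMYND8 (0 of 2 by edgeR, DESeq2 or limma voom, and 0 at an unadjusted p under 0.05). ACSS2 makes acetyl-CoA from acetate. It stood at 78.5 and 69.9 CPM in shLuciferase, 74.7 and 73.1 CPM in shZMYND8 and 121.5 and 112 CPM in shJARID1D. Both shJARID1D libraries lay above all others, and the shZMYND8 libraries lay between the controls. ACSS2 was 1.57-fold higher in shJARID1D than in the control (0.66 ± 0.12, adjusted p = 0.0174) and 1.58-fold lower in shZMYND8 than in shJARID1D (-0.66 ± 0.12, adjusted p = 0.0067). ACLY, which makes acetyl-CoA from citrate, stood at 1005 and 1122 CPM in shLuciferase, 886 and 1005 CPM in shZMYND8 and 851 and 893 CPM in shJARID1D. Its differences from the control, -0.17 ± 0.12 and -0.29 ± 0.12, did not pass (adjusted p = 0.39 and 0.195).

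None of the 3 genes of malonyl-CoA and palmitate synthesis passed in any comparison. FASN, the fatty acid synthase, stood at 366 and 466 CPM in shLuciferase, 346.5 and 427 CPM in shZMYND8 and 282 and 291 CPM in shJARID1D. The shJARID1D libraries lay below all others, and FASN was 1.45-fold below the control there, short of the threshold in edgeR (-0.54 ± 0.15, adjusted p = 0.0673, unadjusted p = 0.00528). DESeq2 called 1 of these 3 genes in shJARID1D and 1 between the knockdowns, and limma voom called 0. ACACA, the cytosolic acetyl-CoA carboxylase, was at 254 and 242 CPM in shLuciferase, 197 and 225 CPM in shZMYND8 and 208 and 216.5 CPM in shJARID1D, with differences of -0.23 ± 0.12 and -0.22 ± 0.12 from the control. ACACB, the carboxylase of the mitochondrial surface, differed by 0.24 ± 0.15 and -0.05 ± 0.15.

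The 3 elongases, which lengthen fatty acyl chains in the endoplasmic reticulum, differed in which knockdown passed the test: ELOVL5 fell in shZMYND8, and ELOVL1 and ELOVL6 fell in shJARID1D. ELOVL5, which elongates polyunsaturated chains, stood at 315 and 273 CPM in shLuciferase, 196 and 173 CPM in shZMYND8 and 228 and 181 CPM in shJARID1D. No knockdown library reached the controls, and the knockdowns overlapped each other. ELOVL5 was 1.59-fold lower in shZMYND8 (-0.67 ± 0.15, adjusted p = 0.0131), and its difference of -0.52 ± 0.15 in shJARID1D did not pass (adjusted p = 0.0656). Between the knockdowns ELOVL5 did not pass either (-0.148 ± 0.145, adjusted p = 0.524), so its fall was not shown to differ between them. ELOVL1, which makes very long chains, stood at 80.8 and 103.5 CPM in shLuciferase, 80.3 and 85.5 CPM in shZMYND8 and 57.3 and 60.6 CPM in shJARID1D. ELOVL6, which elongates palmitate, stood at 79.3 and 67.6 CPM in shLuciferase, 65.9 and 70.2 CPM in shZMYND8 and 49.1 and 48.1 CPM in shJARID1D. For ELOVL1 and ELOVL6 the shJARID1D libraries were lowest, and the control and shZMYND8 libraries overlapped. ELOVL1 was 1.56-fold lower in shJARID1D than in the control (-0.64 ± 0.14, adjusted p = 0.0295), and shZMYND8 stood 1.41-fold above shJARID1D (0.49 ± 0.14, adjusted p = 0.038). ELOVL6 was 1.51-fold lower in shJARID1D (-0.59 ± 0.12, adjusted p = 0.0256), and shZMYND8 stood 1.40-fold above shJARID1D (0.48 ± 0.12, adjusted p = 0.026).

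The 4 desaturases, which place unsaturated bonds in fatty acyl chains, did not pass against the control in either knockdown (0 of 4 by edgeR, DESeq2 and limma voom, and 0 at an unadjusted p under 0.05). SCD, the stearoyl-CoA desaturase, stood at 2019 and 1322 CPM in shLuciferase, 1702 and 1580 CPM in shZMYND8 and 2518 and 1973 CPM in shJARID1D. In the control libraries of SCD, replicate 2 minus replicate 1 came to -0.61 on the log2 scale, the widest gap between replicates of any member, and its difference of 0.43 ± 0.20 in shJARID1D had an interval from -0.01 to 0.86. FADS2, the desaturase that opens polyunsaturated synthesis, stood at 643 and 644 CPM in shLuciferase, 566 and 538 CPM in shZMYND8 and 731 and 723 CPM in shJARID1D. The 3 groups of FADS2 did not overlap, and shZMYND8 stood 1.32-fold below shJARID1D (-0.40 ± 0.11, adjusted p = 0.0379). Against the control it differed by -0.22 ± 0.11 and 0.18 ± 0.11. FADS1, FADS2 and FADS3 are consecutive protein-coding genes on chromosome 11, and FADS1 and FADS2 overlap there, so their split of reads is uncertain. FADS1, the partner of FADS2 in polyunsaturated synthesis, differed by 0.17 ± 0.15 and 0.08 ± 0.15 from the control, and FADS3 by 0.28 ± 0.14 and 0.06 ± 0.14.

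GPAM and LPIN1, which carry fatty acids into glycerolipids, both fell in shZMYND8. GPAM attaches the first acyl chain to glycerol 3-phosphate at the mitochondrial surface. It stood at 55.1 and 55.6 CPM in shLuciferase, 33.2 and 37.8 CPM in shZMYND8 and 39.2 and 37.6 CPM in shJARID1D. Every knockdown library lay below both controls, and the knockdowns overlapped. GPAM passed against shLuciferase in both knockdowns, 1.56-fold lower in shZMYND8 (-0.64 ± 0.12, adjusted p = 0.00695) and 1.44-fold lower in shJARID1D (-0.53 ± 0.12, adjusted p = 0.037). LPIN1, a phosphatidate phosphatase, stood at 110.5 and 100.5 CPM in shLuciferase, 75.2 and 80.5 CPM in shZMYND8 and 110.3 and 107 CPM in shJARID1D. The shZMYND8 libraries lay below all others, and the shJARID1D libraries fell between the controls. LPIN1 was 1.35-fold lower in shZMYND8 than in the control (-0.44 ± 0.11, adjusted p = 0.0291) and 1.40-fold lower than in shJARID1D (-0.48 ± 0.11, adjusted p = 0.0217). The acyl-CoA synthetases ACSL1 and ACSL3, which activate fatty acids, passed in no comparison (0 of 2 by edgeR, DESeq2 and limma voom, and 0 at an unadjusted p under 0.05), with differences from the control of -0.07 to 0.14.

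**Figure D3:**
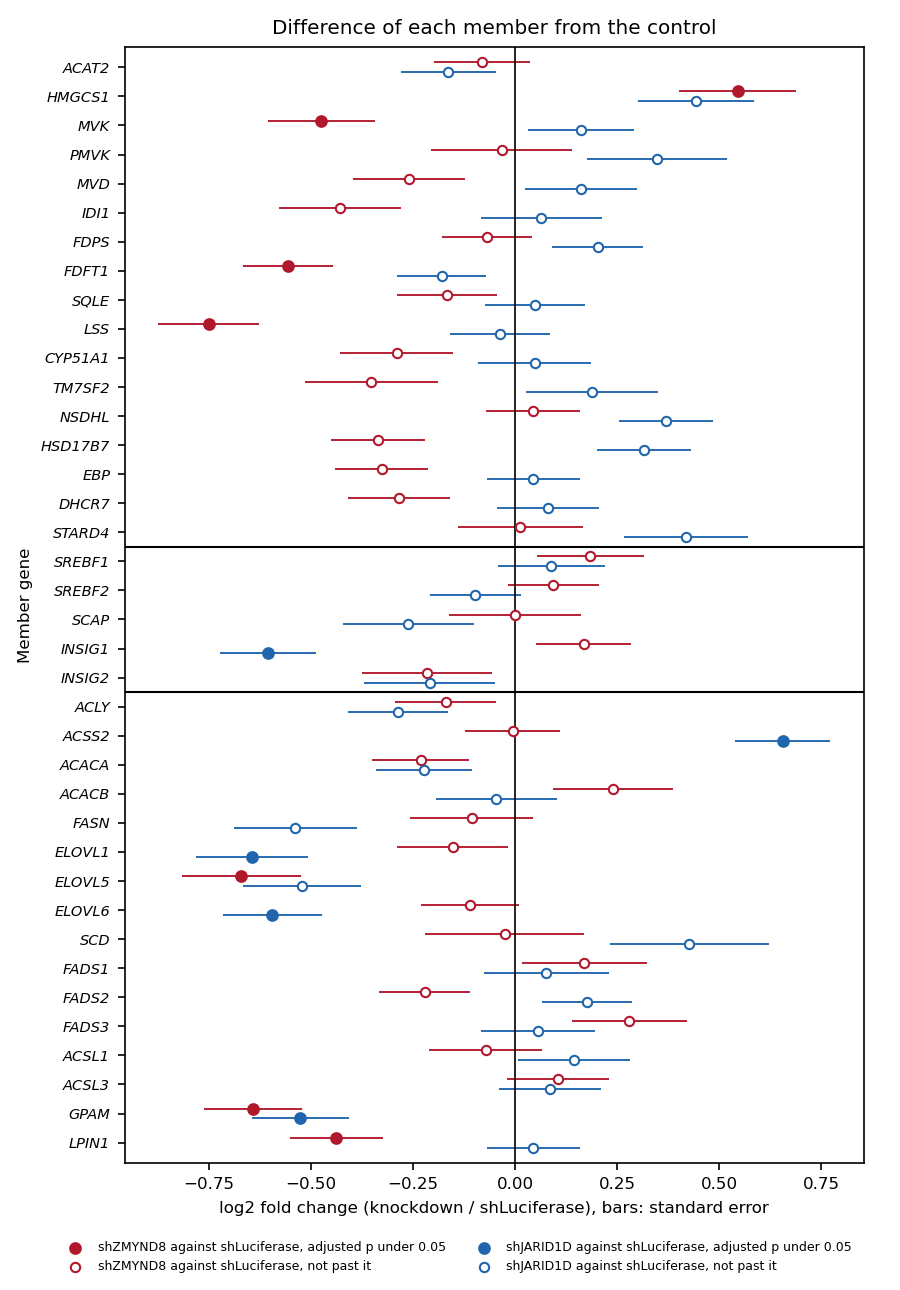
Log2 fold change of each member in shZMYND8 (red) and shJARID1D (blue) against shLuciferase. Bars are standard errors, filled points have an adjusted p under 0.05 and open points do not, and horizontal lines part the sterol branch, the SREBP regulators and the fatty acid branch from top to bottom. In the sterol branch the red points lie mostly left of 0 and the blue points mostly right of it, whereas in the fatty acid branch the colours are mixed.

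The branches were then set side by side. In shZMYND8 the sterol branch had a median log2 fold change of -0.28 with 14 of its 17 genes below 0, and the fatty acid branch a median of -0.11 with 12 of 16 below 0. The medians over all genes tested were -0.01 with 50.5% below 0. By count of calls, the sterol branch had 1 gene higher and 3 lower (23.5%) and the fatty acid branch 3 lower (18.8%), against 16.2% of all genes tested. In shJARID1D the sterol branch had a median of 0.16 with 3 of 17 genes below 0, and the fatty acid branch a median of 0.00 with 8 of 16 below 0. There no gene of the sterol branch passed (0 of 17 by edgeR and by limma voom, 1 by DESeq2, 4 at an unadjusted p under 0.05), while 4 of the fatty acid branch did (25%), against 5.75% of all genes tested. Per library, log2 CPM was set against the mean log2 CPM of the controls. The median of the sterol branch was then -0.27 and -0.23 in shZMYND8, 0.14 and 0.19 in shJARID1D, and -0.03 and 0.03 in the control libraries themselves. Both shZMYND8 libraries lay below and both shJARID1D libraries above the controls. For the fatty acid branch these medians were -0.17 and -0.07, 0.02 and -0.08, and 0.04 and -0.04, so that shJARID1D overlapped the controls. No test was made over the genes of a branch, and the difference between the branches was not tested.

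The direct comparison of the knockdowns does not use the control libraries as a reference. There the sterol branch had a median of -0.38 (shZMYND8 against shJARID1D), with 15 of 17 genes below 0 and LSS, HSD17B7, MVK and FDFT1 past the threshold, all lower in shZMYND8. HMGCS1 and ACAT2 were the 2 genes above 0, at 0.10 ± 0.14 and 0.08 ± 0.12. All 9 genes from squalene to cholesterol were below 0, from -0.71 for LSS to -0.21 for SQLE. The fatty acid branch had a median of 0.01 with 8 of 16 genes below 0, and its calls went both ways: ELOVL1 and ELOVL6 were higher and ACSS2, LPIN1 and FADS2 lower in shZMYND8. The middle of all genes tested, between the quartiles, ran from -0.26 to 0.28 in this comparison, with 49.8% of them below 0. By count of calls, 23.5% of the sterol branch and 31.2% of the fatty acid branch passed, against 15.7% of all genes tested.

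**Figure D4:**
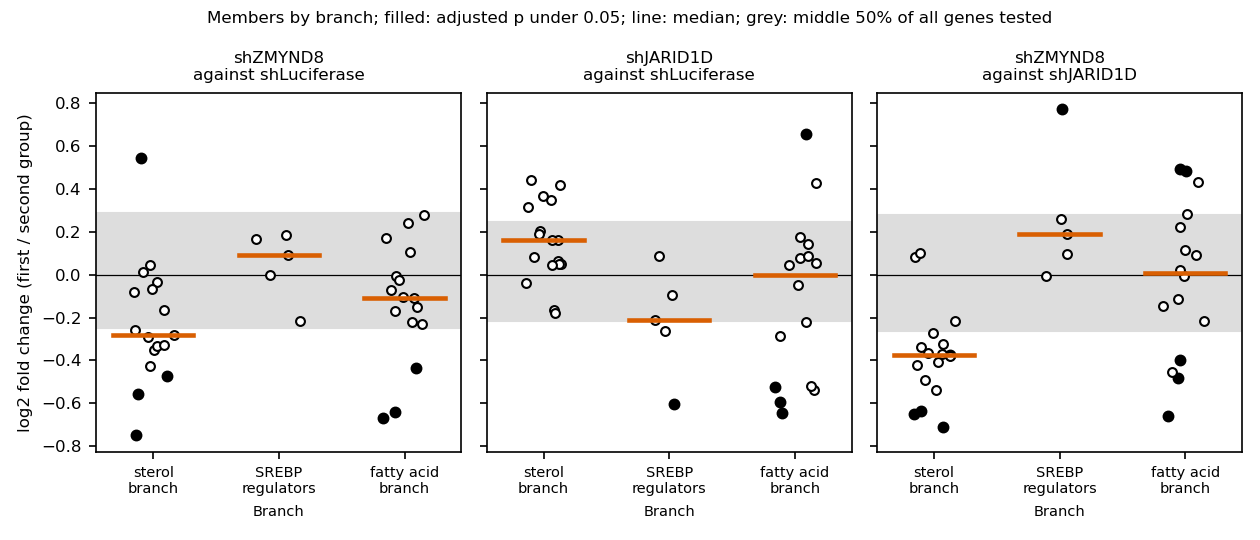
Log2 fold changes of the members by branch in the 3 comparisons, with the median of each branch as an orange line. Filled points have an adjusted p under 0.05, and the grey band holds the middle 50% of all 15867 genes tested. The median of the sterol branch lies at -0.28, 0.16 and -0.38 from left to right, and that of the fatty acid branch at -0.11, 0.00 and 0.01.

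Over all genes tested, calls fell in each comparison when any knockdown library was left out and rose when either control library was. The members' counts moved the same way in each case, so these shifts are not particular to the members. No call of a member against shLuciferase held under every omission of a library, although each kept its direction. For shZMYND8, leaving out shZMYND8 replicate 1 took the count from 7 to 0 (9 at an unadjusted p under 0.05), leaving out shZMYND8 replicate 2 took it to 2, and leaving out shJARID1D replicate 2 to 4. Without shZMYND8 replicate 1 the adjusted p was 0.0583 for LSS, 0.0678 for ELOVL5, 0.0721 for HMGCS1, 0.0916 for FDFT1, 0.0972 for GPAM, 0.22 for LPIN1 and 0.249 for MVK. LSS and GPAM passed without any other library. Without shZMYND8 replicate 2 the adjusted p was 0.066 for FDFT1 and 0.121 for ELOVL5, and HMGCS1, MVK and LPIN1 also failed there and without shJARID1D replicate 2. MVK and LPIN1 failed without shJARID1D replicate 1, and HMGCS1 and MVK without shLuciferase replicate 2. For shJARID1D the count of 5 became 0 without either shJARID1D library (9 at an unadjusted p under 0.05 in each case), 1 without either shZMYND8 library and 10 without shLuciferase replicate 1. The adjusted p without a shJARID1D library was 0.0887 to 0.165 for ACSS2, 0.156 to 0.17 for INSIG1, 0.133 to 0.222 for ELOVL1, 0.165 to 0.188 for ELOVL6 and 0.215 to 0.218 for GPAM, and all of these but ACSS2 also failed without either shZMYND8 library. Between the knockdowns the count of 10 became 20 without either control library and 1 or 2 without a knockdown library. INSIG1 failed there only without shJARID1D replicate 2 (adjusted p = 0.0503), and the other 9 failed without at least 3 of the 4 knockdown libraries.

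Other settings ended some of these calls. Over all genes tested, calls numbered 2574 in shZMYND8, 912 in shJARID1D and 2490 between the knockdowns. They became 1805, 204 and 1560 with no filter on low counts (21044 genes tested). In a fit of only the groups compared they became 1993, 449 and 4252. With no filter on low counts, HMGCS1 (adjusted p = 0.0646) and MVK (0.0564) did not pass in shZMYND8, and no member passed in shJARID1D, with INSIG1 at 0.0553 and ACSS2 at 0.0511. Between the knockdowns that setting left 7 of the 10 calls and ended those of FDFT1 (0.0529), ELOVL1 (0.0752) and ELOVL6 (0.054). In a fit of only the groups compared, HMGCS1 (0.053), MVK (0.0664) and LPIN1 (0.0614) did not pass in shZMYND8, nor did ELOVL1 (0.0576), ELOVL6 (0.0551) and GPAM (0.0654) in shJARID1D. GPAM also failed in shJARID1D with scaling by library totals (0.0642).

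Further genes of the same pathways, 78 in 6 lists, gave a share of calls near the background in shZMYND8 against shLuciferase. Of the 75 with enough counts, 4 were higher and 8 lower there (16%), 2 higher and 4 lower in shJARID1D (8%), and 6 higher and 9 lower in shZMYND8 than in shJARID1D (20%). The 9 other genes of sterol and isoprenoid synthesis passed in no comparison: 0 by edgeR in each, with 0, 2 and 2 at an unadjusted p under 0.05, and 1 by DESeq2 between the knockdowns. Their log2 fold changes ran from -0.27 to 0.12 in shZMYND8, with a median of -0.06 and 7 of 9 below 0. The median of the sterol branch there was -0.28. In shJARID1D they ran from -0.27 to 0.39, with a median of 0.13 and 2 below 0. Between the knockdowns their median was -0.24, with 7 below 0.

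Of 10 genes of cholesterol uptake, trafficking and esterification, SCARB1, a receptor for high-density lipoprotein, was the only one past the threshold against shLuciferase. It stood at 66.7 and 75.4 CPM in shLuciferase, 124 and 119 CPM in shZMYND8 and 72.2 and 67.5 CPM in shJARID1D. The shZMYND8 libraries lay above all others, 1.71-fold above the control (0.77 ± 0.12, adjusted p = 0.00264), and SCARB1 passed under each omission of a library. NPC2, a lysosomal cholesterol carrier, was lower in shZMYND8 than in shJARID1D (-0.40 ± 0.12, adjusted p = 0.0444). Among 10 tested genes of the liver X receptors and oxysterols, CH25H, which makes an oxysterol that blocks SREBP release, stood at 0.178 and 0.258 CPM in shLuciferase, 1.304 and 1.02 CPM in shZMYND8 and 0.980 and 1.04 CPM in shJARID1D. The control level was only a few fragments, and CH25H was higher in shZMYND8 (adjusted p = 0.00863) and in shJARID1D (adjusted p = 0.032). ABCG1, a sterol exporter, stood at 1.07 and 0.945 CPM in shLuciferase, 4.63 and 2.88 CPM in shZMYND8 and 1.75 and 1.84 CPM in shJARID1D, with adjusted p = 0.00485 for shZMYND8 against the control. NR1H2, a liver X receptor gene, rose from 43.2 and 54.7 CPM in shLuciferase to 78.6 and 89.9 CPM in shJARID1D (adjusted p = 0.0169). RXRB and MYLIP were lower in shZMYND8 than in shJARID1D (-0.54 ± 0.15 and -0.53 ± 0.16).

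Of 11 tested lipogenic regulators and cofactor genes, MID1IP1, which promotes polymerisation of acetyl-CoA carboxylase, fell in both knockdowns, from 72.1 and 80.4 CPM to 52.1 and 46.5 CPM in shZMYND8 and 49.9 and 45.8 CPM in shJARID1D (adjusted p = 0.00828 and 0.0189). Of 20 other genes of fatty acid activation, elongation and glycerolipids, ELOVL7 rose in shZMYND8 (0.74 ± 0.14, adjusted p = 0.0085) and AGPAT3, ELOVL2 and ACSL5 fell. ELOVL2, an elongase of polyunsaturated chains like ELOVL5, stood at 74.1 and 70.3 CPM in shLuciferase, 39.2 and 45.7 CPM in shZMYND8 and 65.2 and 67.3 CPM in shJARID1D. AGPAT3, the acyltransferase that acts after GPAM, stood at 129 and 140.1 CPM in shLuciferase, 83.0 and 71.5 CPM in shZMYND8 and 110.2 and 109.1 CPM in shJARID1D. ELOVL2 fell 1.70-fold (-0.76 ± 0.12, adjusted p = 0.00315) and AGPAT3 1.74-fold (-0.80 ± 0.12, adjusted p = 0.00265) in shZMYND8. In shJARID1D, the lipases MGLL and PNPLA2 fell (-0.80 ± 0.13 and -0.72 ± 0.16, adjusted p = 0.0139 and 0.0341). Between the knockdowns DGAT2, ELOVL3, MGLL and PNPLA2 were higher in shZMYND8.

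Of 15 tested genes of fatty acid oxidation, HADH, ACADVL and ECHS1 fell in shZMYND8 (-0.71 ± 0.14, -0.60 ± 0.14 and -0.44 ± 0.13, adjusted p = 0.00864, 0.0164 and 0.0444). The median of the 15 genes there was -0.22 with 14 below 0, beside -0.28 with 14 of 17 below 0 for the sterol branch. A lean below the control in shZMYND8 was thus not particular to the sterol branch. In shJARID1D the median of the 15 genes was -0.06 with 9 below 0. HADH, ACADS and SLC25A20 were lower in shZMYND8 than in shJARID1D (adjusted p = 0.0134, 0.0176 and 0.0267). Of the genes named from these lists, SCARB1 and AGPAT3 held their calls against shLuciferase under each omission of a library, while in shZMYND8 CH25H, MID1IP1, ELOVL2, ELOVL7, HADH, ACADVL, ECHS1, ACSL5 and ABCG1 did not pass without shZMYND8 replicate 1. With a library left out, ECHS1 passed only when it was shLuciferase replicate 1, and MID1IP1, ELOVL7, ACADVL and ACSL5 also failed without shZMYND8 replicate 2. Most of the 12 calls in shZMYND8 were lost without shZMYND8 replicate 1, and all 6 calls in shJARID1D without either shJARID1D library. The call of CH25H in shJARID1D was lost with any library left out (adjusted p from 0.0509 to 0.165).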

How the data were processed

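RNA was sequenced from 6 DU145 libraries, and the 29 chromatin immunoprecipitation and input samples of the series were not analysed here. The deposited Cuffdiff table holds expected counts, that is fragment counts the authors' software estimated per gene and library. A single fragment is worth 0.881 to 1.16 in it, so the deposited values carry a scaling per library, and 84.0% to 84.9% of values divided by it lay within 0.05 of a whole number. Tools named in the submitters' processing notes are Cuffdiff, edgeR 3.12.0, Bowtie 1.1.2 and TopHat2 2.0.12, with build hg19. For annotation and strandedness, nothing is given in the sources used here. Of the table, 18 deposited variance columns were not used.

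Counts were rounded, and 60 genes that the table marks as not quantified in at least 1 library were left out; no member was among them. Of 28443 genes, 15867 passed filterByExpr and were fitted by the quasi-likelihood F test of edgeR 4.0.16, run in R 4.3.3 (TMM factors of 0.966 to 1.057, Benjamini-Hochberg over all genes tested, threshold 0.05). All 6 libraries shared the spread, with 3 residual and 6.83 prior degrees of freedom, without a block. The common biological coefficient of variation was 12.3%. CPM values use the TMM-scaled totals, and intervals are 95% intervals from the fit. The fit was tested on simulated data.

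Members and lists were chosen with earlier results of these data known. Members past the threshold in at least 1 comparison and the 5 SREBP regulators were named in full, other members given per library were picked after their values were seen, and up to 4 genes past the threshold were named per list and comparison. Of the list genes that this rule names, 2 are not reported here. Of the 78 listed genes, ERG28 and HACD3 were found under older names. Alternatives were other scalings, filters, DESeq2 1.42.0, limma voom 3.58.1, only the groups compared, a replicate block, a threshold of 0.01, unquantified genes kept, the deposited scaling undone, each library left out, and branches without ACLY and ACSS2 or without STARD4. Tables and figures were made with Python 3.11.15, pandas 2.3.3 and matplotlib 3.10.9.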

Additional observations from a re-analysis of the deposited data

How the results depend on the processing

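The calls depended on single libraries and on the threshold, while the sign of the sterol branch median held under every alternative run. A threshold of 0.01 left 3 members (2 sterol, 1 fatty acid) in shZMYND8 against shLuciferase, 0 in shJARID1D and 4 between the knockdowns. Of the other pathway genes it left 0 in shJARID1D and 2 between the knockdowns. Calls over all genes were not counted at 0.01, so these counts have no background share beside them. Without a filter on low counts the sterol branch kept 2 calls in shZMYND8, the members and the fatty acid branch 0 in shJARID1D (12 members at an unadjusted p under 0.05 by edgeR), and the other pathway genes 1 in shJARID1D and 8 between the knockdowns. DESeq2 called 8 members in shJARID1D, 1 of them in the sterol branch, and 16 between the knockdowns. Over all genes tested it called 1359 and 2606 there. In a fit of only the groups compared, 4 members (2 sterol) passed in shZMYND8, 2 (1 fatty acid) in shJARID1D and 20 between the knockdowns, and of the other pathway genes 3 in shJARID1D and 25 between the knockdowns.

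Replicate numbers share no named batch. Deviations of same-numbered libraries correlated positively across genes, at 0.0925, 0.17 and 0.0969. Whether same-numbered libraries were prepared together was not tested. With a replicate block, 10 members passed in shZMYND8 (7 sterol), 11 in shJARID1D (3 sterol, 7 fatty acid) and 19 between the knockdowns. Of the other pathway genes, 24, 12 and 23 passed. Over all genes tested, calls rose with the block from 2574, 912 and 2490 to 3699, 2073 and 3785.

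With 1 library left out, a group with a single library was assumed to vary like the others. Calls over all genes tested fell without a knockdown library and rose without a control library, so the ranges below follow those of all genes in direction. The members called ranged from 0 to 9 in shZMYND8, from 0 to 10 in shJARID1D and from 1 to 20 between the knockdowns. The sterol branch ranged from 0 to 6 and from 0 to 2 against shLuciferase, the fatty acid branch from 0 to 3 and from 0 to 6, and the other pathway genes from 2 to 19, 0 to 10 and 1 to 25. Between the knockdowns the sterol branch, with 4 calls, ranged from 0 to 12, and had 9 by library totals, 9 by DESeq2, 7 with a mean count of at least 50, 12 with only the groups compared and 11 with the block.

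The median of the sterol branch in shZMYND8 was -0.25 with upper quartile scaling, -0.25 with library totals and -0.29 to -0.20 with a library left out. In shJARID1D it was 0.12 without STARD4, 0.21 with upper quartile scaling, 0.25 with library totals (where 1 sterol gene passed) and 0.13 to 0.19 with a library left out. Between the knockdowns it was -0.43 with library totals. These scalings moved the median of all genes too. With upper quartile scaling it was 0.027 in shZMYND8 and 0.048 in shJARID1D. With library totals it was 0.031 in shZMYND8, 0.089 in shJARID1D and -0.053 between the knockdowns. The median of the fatty acid branch in shJARID1D, near 0, was 0.089 with library totals, where the median of all genes was also 0.089, and -0.088 to 0.025 with a library left out. No member that passed in a comparison changed sign there with a library left out, but members that did not pass did so in each comparison, among them PMVK (-0.20 to 0.15), STARD4 (-0.19 to 0.24) and SCD (-0.30 to 0.31) in shZMYND8 and IDI1 (-0.13 to 0.29) in shJARID1D. SCAP in shZMYND8 was 0.034 with upper quartile scaling, 0.038 with library totals, 0.021 with a mean count of at least 50, 0.025 with limma voom, 0.0016 with only the groups compared, 0.016 with a replicate block, 0.0019 with unquantified genes kept and -0.25 to 0.29 with a library left out. With a library left out, SCAP in shJARID1D ranged from -0.51 to 0.030, SREBF1 from -0.055 to 0.22 in shJARID1D and from -0.044 to 0.25 between the knockdowns, and INSIG2 from -0.15 to 0.15 between the knockdowns. The cause of these changes was not tested beyond what the scaling, fewer libraries or fewer genes imply.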
